A study of Mus musculus with 17 samples.

Results

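The genes described here are 9 genes that make, receive or mark the macrophage lineage: the growth factor genes Csf1 and Il34, their receptor gene Csf1r, the transcription factor genes Spi1 and Irf8, and the surface and lysosomal genes Adgre1, Cd68, Lyz2 and Cx3cr1. They were taken by name, and all 9 were measured among 22180 genes. Periprostatic fat, the depot next to the prostate, was profiled in 17 C57BL/6J males with Affymetrix Mouse Gene 2.0 ST arrays, 1 for each animal. The restricted group (HFD+CR, n = 5) ate a diet with 60 kcal% fat from 6 weeks of age, freely for 12 weeks and then for 7 weeks at 70% of what HFD mice ate. The HFD group (n = 6) ate the same diet freely throughout. The LFD group (n = 6) ate a diet with 10 kcal% fat freely throughout. All mice were killed at 25 weeks of age, and no mouse carried a transgene or deletion that the labels name.

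Macrophages depend on signalling through the CSF1 receptor, a tyrosine kinase on their surface, for survival and growth. The receptor has a pair of ligands that do not resemble each other in sequence, CSF1 and interleukin 34, and both are made largely by cells other than macrophages. PU.1, the product of Spi1, switches on the genes of the lineage, Csf1r among them, and IRF8 works beside it in monocytes and dendritic cells. Obesity is known for a gain of macrophages in fat, where many of them surround dying adipocytes.

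Promoter sequences are shown for 4 of the genes because their signals took different courses across the diets: Cd68 and Lyz2 were highest in HFD, Csf1 passed in no comparison, and Cx3cr1 was lowest in HFD+CR. Promoters from RefSeq (GRCm38.p6), from 250 bases before to 50 after the start, were searched for 5 of the 9 genes. Irf8 is the fifth of these, with 2 starts. Csf1r was left out of the search, which does not mean that RefSeq lacks its promoter. Capitals mark 3 motifs searched on both strands: GAGGAA and AGGAAGT, forms of the site that PU.1 and related ETS factors bind, and the joint ETS and IRF site in the form GGAA, any 2 bases, then GAAA. The first pair share AGGAA, and AGGAAGT was added after the sequences had been seen.
Cd68 (chr11:69666121-69666420, minus strand): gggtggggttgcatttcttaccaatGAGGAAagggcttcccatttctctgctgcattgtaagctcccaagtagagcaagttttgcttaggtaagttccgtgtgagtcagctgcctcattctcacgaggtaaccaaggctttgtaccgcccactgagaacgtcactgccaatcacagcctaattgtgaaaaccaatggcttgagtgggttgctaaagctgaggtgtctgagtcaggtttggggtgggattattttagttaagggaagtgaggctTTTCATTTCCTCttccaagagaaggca
Lyz2 (chr10:117282223-117282522, minus strand): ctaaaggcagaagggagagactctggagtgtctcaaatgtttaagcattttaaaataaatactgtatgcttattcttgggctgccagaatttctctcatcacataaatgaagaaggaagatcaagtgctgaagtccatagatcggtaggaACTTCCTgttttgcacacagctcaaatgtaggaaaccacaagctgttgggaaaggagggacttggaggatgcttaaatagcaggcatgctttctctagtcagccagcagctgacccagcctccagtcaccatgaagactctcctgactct
Csf1 (chr3:107760420-107760719, minus strand): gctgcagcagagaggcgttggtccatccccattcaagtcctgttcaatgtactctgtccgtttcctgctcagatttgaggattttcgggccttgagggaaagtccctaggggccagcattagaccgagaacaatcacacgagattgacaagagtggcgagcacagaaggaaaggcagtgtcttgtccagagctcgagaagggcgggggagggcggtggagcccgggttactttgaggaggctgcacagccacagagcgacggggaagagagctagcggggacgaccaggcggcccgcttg
Cx3cr1 (chr9:120068247-120068546, minus strand): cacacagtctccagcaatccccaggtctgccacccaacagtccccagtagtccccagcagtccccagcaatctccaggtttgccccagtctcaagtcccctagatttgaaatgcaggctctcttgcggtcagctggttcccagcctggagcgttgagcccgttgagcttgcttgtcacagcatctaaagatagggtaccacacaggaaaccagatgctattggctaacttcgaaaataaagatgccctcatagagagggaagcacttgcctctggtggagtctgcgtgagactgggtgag
With the start counted as 0, the Cd68 promoter held GAGGAA at -225 to -220 and, on the other strand, at 29 to 34, where it overlapped the joint site at 23 to 32. The Lyz2 promoter held AGGAAGT on the other strand at -100 to -94. None of the 3 motifs was found in the promoters of Csf1, Cx3cr1 and Irf8. Of 32851 promoters of the same length, 28.3% held GAGGAA, 9.35% AGGAAGT and 2.72% the joint site. A match describes the letters only, and binding was not measured.

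Signals are given on the log2 scale of the deposited values, on which a step of 1 is a doubling, and signals of different genes are not compared with each other. Every member lay above the median of its array in all 17 mice. Array medians lay between 7.03 and 7.15, and precision is limited by how many arrays there were. The words rose and fell are used where a gene's adjusted p from limma, with Benjamini-Hochberg adjustment over all 22180 genes, was under 0.05. Each difference is given with its standard error (SE) from that fit. In whole tissue, fewer cells of a type and less of a transcript per cell cannot be told apart.

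Some arrays carried transcripts of other tissues. Relative to the median array, the mean of a skeletal muscle list was 1.97 higher in HFD+CR mouse 2, 3.15 in LFD mouse 2 and 1.94 in LFD mouse 3. It was also 0.83 higher in HFD mouse 6 and 0.75 in LFD mouse 5, which were kept when the 4 arrays named below were left out. A urothelium list was 1.27 higher in LFD mouse 3. The mean of a prostate and accessory gland list was 1.07 higher in HFD mouse 3 and 2.24 in LFD mouse 3. A male germ cell list was 2.20 higher in HFD+CR mouse 1. A list of 6 thermogenic (brown or beige) adipocyte genes, Ucp1 among them, was 3.02 higher in LFD mouse 3 and 2.35 higher in LFD mouse 6. The mean of that list ran from 7.24 to 7.99 in HFD+CR, 7.57 to 8.34 in HFD and 7.83 to 11.01 in LFD. Of its 6 markers, 1 was lower in HFD+CR than in HFD, 4 were lower in HFD+CR than in LFD and 2 were lower in HFD than in LFD, and their part in the members' differences was not tested. Without LFD mice 3 and 6, the members called numbered 8 in HFD+CR against HFD, 2 in HFD+CR against LFD and 7 in HFD against LFD. Adipocyte genes, the check on the labelled tissue, were high throughout, with a list mean of 12.95 to 13.04 in HFD+CR, 12.72 to 12.88 in HFD and 12.88 to 13.02 in LFD over 8 markers, of which 6 rose in HFD+CR against HFD and 6 fell in HFD against LFD. Without the 4 arrays high in muscle or gland transcripts, the members called numbered 8 in HFD+CR against HFD, 2 in HFD+CR against LFD and 7 in HFD against LFD, where all arrays gave 8, 3 and 7. All genes called in HFD+CR against HFD numbered 4679 without LFD mice 3 and 6, 3847 without these 4 arrays and 4213 with all arrays. Over all alternatives named below they numbered 1297 to 2462 in HFD+CR against LFD and 5396 to 6965 in HFD against LFD. With all arrays, 7.69% of all genes rose and 11.3% fell in HFD+CR against HFD, and 16.5% rose and 11.3% fell in HFD against LFD. In HFD+CR, 5.8% stood higher and 3.28% lower than in LFD.

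High-fat feeding was set against low-fat feeding to see how the depot's macrophage genes differ with diet. The receptor, both transcription factors and the markers Adgre1, Cd68 and Lyz2 rose, so that 6 of 9 members rose, where 16.5% of all genes did. Il34 fell, the only member of the 9 to do so, where 11.3% of all genes fell. Csf1 and Cx3cr1 did not pass. The median difference of the 9 members was 0.76, against -0.0032 for all genes tested. The groups did not overlap for the 6 that rose and the 1 that fell, where 9.05% and 5.21% of all genes were without overlap in these directions. Over all genes 59.4% of the calls were rises, a share that was 47.9% with arrays centred on their medians and 47.9% with quantile normalization applied again, and both settings left the members' calls as they were.

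Restriction on the high-fat diet was set against free feeding on it. Here 7 of 9 members fell and 1 rose, where 11.3% of all genes fell and 7.69% rose. Those that fell were Csf1r, Spi1, Irf8, Adgre1, Cd68, Lyz2 and Cx3cr1, and the one that rose was Il34, while Csf1 did not pass. The groups did not overlap for these 8 members, where 8.26% of all genes lay lower and 5.42% higher without overlap. The members' median difference was -0.58, against -0.0024 for all genes. Of all calls 40.5% were rises, and 51.4% after quantile normalization again, which left the members' calls as they were.

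HFD+CR mice were also set against LFD mice. Cd68 and Spi1 stood higher, 2 of 9 members where 5.8% of all genes did, and Cx3cr1 stood lower, where 3.28% did. The other 6 members did not pass, and the members' median difference was 0.10, against -0.00045 for all genes. The groups lay apart without overlap for Cd68, which was higher, and Cx3cr1, which was lower, where 4.24% and 2.43% of all genes did so. The 3 comparisons share mice, so that each is given by its own values.

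**Figure D1:**
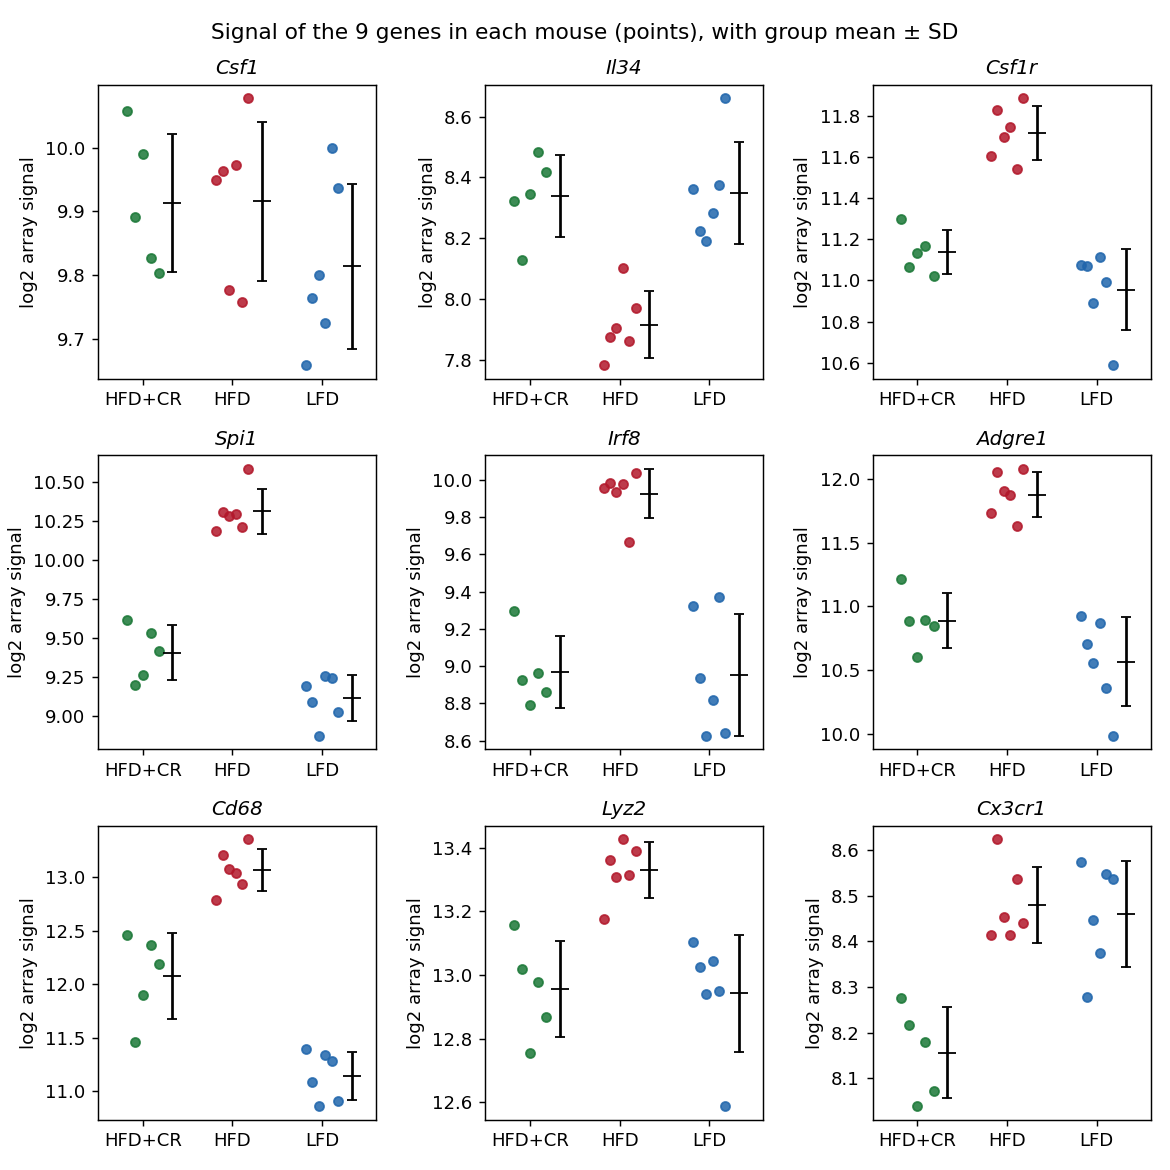
The log2 array signal (vertical axis, with its own range in each panel) of each of the 9 genes in each mouse, with HFD+CR, HFD and LFD from left to right. Points are mice, in order of mouse number, and black bars are the group mean ± SD. The Il34 points of HFD, at 7.78 to 8.10, lie below all others, and the Cx3cr1 points of HFD+CR, at 8.04 to 8.28, lie below all others.

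Among the ligands, Csf1 encodes colony stimulating factor 1, the main growth factor of tissue macrophages. Its signal was 10.06, 9.89, 9.99, 9.83 and 9.80 in HFD+CR mice 1 to 5, with a lowest, median and highest signal of 9.76, 9.96 and 10.08 in HFD and of 9.66, 9.78 and 10.00 in LFD. The 3 groups overlapped throughout. Csf1 differed by -0.0023 ± 0.072 between HFD+CR and HFD (95% interval -0.15 to 0.15, adjusted p = 0.99) and by 0.10 ± 0.069 between HFD and LFD (interval -0.043 to 0.25, adjusted p = 0.314). Between HFD+CR and LFD the difference was 0.10 ± 0.072 (interval -0.052 to 0.25, adjusted p = 0.468). These intervals leave out any difference of the Csf1 signal as large as that of its receptor gene in HFD against LFD, 0.76 on the same scale. Whether the probes of these genes respond equally was not tested, so the transcripts themselves are not compared.

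Il34 encodes interleukin 34, the other ligand, best known for keeping Langerhans cells of the skin and microglia of the brain. Its signal was 8.32, 8.13, 8.35, 8.48 and 8.42 in HFD+CR mice 1 to 5, with 7.78, 7.89 and 8.10 as the lowest, median and highest in HFD and 8.19, 8.32 and 8.66 in LFD. All 6 HFD mice lay below all 11 others, and the closest pair was HFD+CR mouse 2 at 8.13 and HFD mouse 4 at 8.10. It fell by 0.43 on the log2 scale in HFD against LFD (SE 0.077, adjusted p = 0.000316), a signal 0.74 times that of LFD. It rose in HFD+CR against HFD by 0.42 ± 0.081, or 1.34-fold (adjusted p = 0.0011). HFD+CR and LFD differed by -0.010 ± 0.081 (interval -0.18 to 0.16, adjusted p = 0.962).

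Csf1r encodes the receptor of both ligands and is made chiefly by monocytes and macrophages. It measured 11.30, 11.06, 11.13, 11.17 and 11.02 in HFD+CR mice 1 to 5, against 11.54, 11.72 and 11.88 as the lowest, median and highest in HFD. In LFD the corresponding signals were 10.59, 11.03 and 11.11. HFD mice lay above all others, while HFD+CR and LFD overlapped. The rise in HFD against LFD was 0.76 ± 0.083, or 1.69-fold (adjusted p = 1.65e-06), and the fall in HFD+CR against HFD was -0.58 ± 0.087 (adjusted p = 0.000133). HFD+CR stood 0.18 ± 0.087 above LFD without passing (adjusted p = 0.235).

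**Figure D2:**
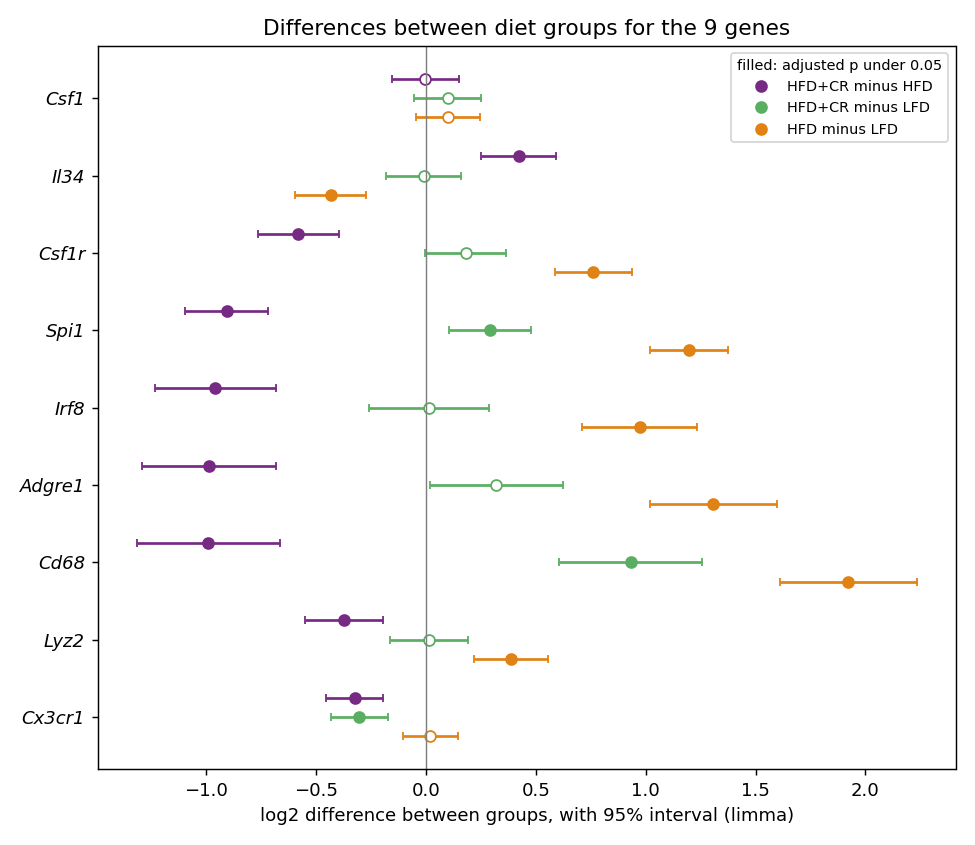
Log2 differences between groups for the 9 genes (horizontal axis), with 95% intervals from limma, in HFD+CR minus HFD, HFD+CR minus LFD and HFD minus LFD from top to bottom within each gene. Filled points passed at an adjusted p under 0.05. Csf1 has no filled point, and Cx3cr1 has filled points in both comparisons of HFD+CR, at -0.32 and -0.30.

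Spi1 encodes PU.1, the transcription factor without which macrophages and B cells do not form. Its signal was 9.62, 9.20, 9.26, 9.53 and 9.42 in HFD+CR mice 1 to 5, with 10.19, 10.29 and 10.59 as the lowest, median and highest in HFD and 8.87, 9.14 and 9.26 in LFD. Every HFD mouse lay above every other mouse. Spi1 rose by 1.20 ± 0.085 in HFD against LFD, or 2.29-fold (adjusted p = 1.97e-08), the smallest p among the 9 members in that comparison. It fell by 0.91 in HFD+CR against HFD (SE 0.089, adjusted p = 6.47e-06). Spi1 stood 0.29 ± 0.089 higher in HFD+CR than in LFD at an adjusted p of 0.0485, a call that ended in 19 of 28 alternatives (adjusted p 0.026 to 0.244), among them without HFD+CR mouse 1 (0.24, adjusted p = 0.141) and without the 4 arrays high in muscle or gland transcripts (0.28, adjusted p = 0.0974).

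Irf8 encodes a transcription factor of monocytes, dendritic cells and B cells. It measured 9.29, 8.93, 8.79, 8.96 and 8.86 in HFD+CR mice 1 to 5, against 9.66, 9.97 and 10.04 as the lowest, median and highest in HFD, and 8.63, 8.88 and 9.37 in LFD. HFD mice lay above all others, and HFD+CR mice lay within the span of LFD mice. The rise in HFD against LFD was 0.97 ± 0.12, or 1.96-fold (adjusted p = 9.33e-06), and the fall in HFD+CR against HFD was -0.96 ± 0.13 (adjusted p = 5.18e-05). HFD+CR and LFD differed by 0.015 ± 0.13 (interval -0.26 to 0.29, adjusted p = 0.968). A second, dimmer probe set of Irf8 averaged 6.68 ± 0.082 in HFD+CR (SD, n = 5), 6.97 ± 0.12 in HFD (n = 6) and 6.75 ± 0.17 in LFD (n = 6), below the array medians, and with both probe sets averaged the differences were 0.59 for HFD minus LFD (adjusted p = 1.57e-05) and -0.62 for HFD+CR minus HFD (adjusted p = 4.67e-05).

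Adgre1 encodes F4/80, the surface receptor most used to identify mouse macrophages. Its signal was 11.21, 10.89, 10.60, 10.90 and 10.84 in HFD+CR mice 1 to 5, with 11.63, 11.89 and 12.08 as the lowest, median and highest in HFD and 9.99, 10.63 and 10.92 in LFD. HFD mice lay apart from both other groups, which overlapped. The rise in HFD against LFD was 1.31 ± 0.14, or 2.48-fold (adjusted p = 1.04e-06). It fell by 0.99 on the log2 scale in HFD+CR against HFD (SE 0.14, adjusted p = 0.000103). HFD+CR stood 0.32 ± 0.14 above LFD without passing (adjusted p = 0.198).

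Cd68 encodes a glycoprotein of late endosomes and lysosomes that is abundant in macrophages. It measured 12.46, 11.46, 11.90, 12.36 and 12.19 in HFD+CR mice 1 to 5, with 12.79, 13.06 and 13.35 as the lowest, median and highest in HFD and 10.86, 11.18 and 11.39 in LFD. The 3 groups did not overlap, and HFD+CR lay between the other 2. Cd68 had the largest rise of the 9 members in HFD against LFD, 1.92 ± 0.15 or 3.79-fold (adjusted p = 3.75e-08). It fell by 0.99 in HFD+CR against HFD (SE 0.15, adjusted p = 0.000182) and stood 0.93 ± 0.15 above LFD in HFD+CR, or 1.91-fold (adjusted p = 0.000862).

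Lyz2 encodes lysozyme M, a secreted enzyme that breaks bacterial walls and is made by macrophages and neutrophils. It measured 13.16, 13.02, 12.76, 12.98 and 12.87 in HFD+CR mice 1 to 5, with 13.17, 13.34 and 13.43 as the lowest, median and highest in HFD and 12.59, 12.99 and 13.10 in LFD. The HFD mice lay above all others, and the gap was narrow, with HFD+CR mouse 1 at 13.16 and HFD mouse 1 at 13.17. The rise in HFD against LFD was 0.39 ± 0.081, or 1.31-fold (adjusted p = 0.00126), and the fall in HFD+CR against HFD was -0.37 ± 0.085 (adjusted p = 0.00414). HFD+CR and LFD differed by 0.014 ± 0.085 (interval -0.16 to 0.19, adjusted p = 0.95). Lyz2 lay near the upper end of the array's range, which reached 14.41, and the part of that in the size of its differences was not tested.

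Lyz1, the neighbouring and near-identical lysozyme gene of Paneth cells, moved otherwise. It averaged 12.28 ± 0.32 in HFD+CR (SD, n = 5), 11.78 ± 0.21 in HFD (n = 6) and 12.52 ± 0.34 in LFD (n = 6). It fell by 0.74 on the log2 scale in HFD against LFD (SE 0.15, adjusted p = 0.00118) and rose by 0.50 ± 0.16 in HFD+CR against HFD (adjusted p = 0.0362). Because the pair are so alike, their probes may pick up each other's transcripts, and the sizes for both are uncertain.

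Cx3cr1 encodes the receptor for fractalkine, carried by patrolling monocytes and by some tissue macrophages and NK cells. Its signal was 8.28, 8.22, 8.04, 8.18 and 8.07 in HFD+CR mice 1 to 5, with 8.41, 8.45 and 8.62 as the lowest, median and highest in HFD and 8.28, 8.49 and 8.57 in LFD. HFD and LFD overlapped, and HFD+CR mice lay below all HFD and LFD mice, with HFD+CR mouse 1 at 8.276 and LFD mouse 2 at 8.278 as the closest pair. HFD and LFD differed by 0.021 ± 0.059 (interval -0.10 to 0.15, adjusted p = 0.845). Cx3cr1 fell by 0.32 in HFD+CR against HFD (SE 0.062, adjusted p = 0.00108) and stood below LFD in HFD+CR (difference -0.30 ± 0.062, adjusted p = 0.00443). The gene for its ligand, Cx3cl1, averaged 7.22 ± 0.25 in HFD+CR (SD, n = 5), 7.59 ± 0.17 in HFD and 7.69 ± 0.24 in LFD (n = 6 each). Cx3cl1 too fell in HFD+CR, by 0.37 against HFD (SE 0.12, adjusted p = 0.0446) and by 0.47 against LFD (SE 0.12, adjusted p = 0.0221), and it was picked as the ligand of a member. The lowest Cx3cl1 signal in HFD+CR, 6.86, lay below the array medians, and these calls were not tried in the alternatives.

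**Figure D3:**
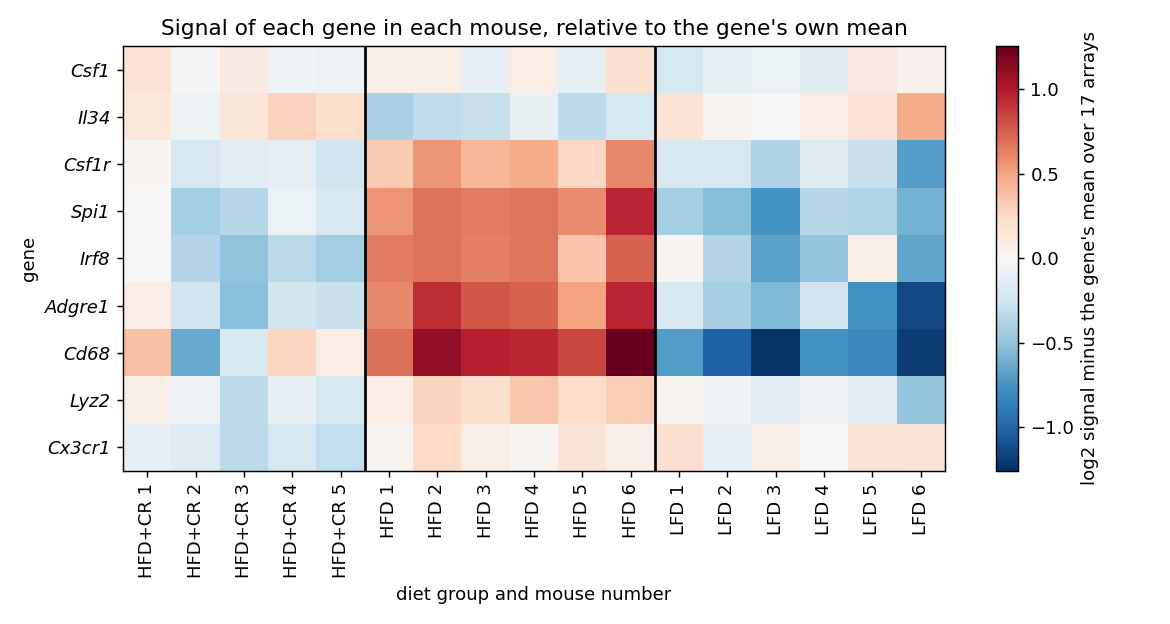
The log2 signal of each gene (rows) in each mouse (columns, by group and mouse number), relative to the gene's own mean over 17 arrays, with red above and blue below it. The HFD block is red for Csf1r, Spi1, Irf8, Adgre1, Cd68 and Lyz2 and blue for Il34. HFD+CR mouse 1 is the highest of its group for 8 of the 9 genes.

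Some mice were the highest or lowest of their group for several members. HFD+CR mouse 1 was the highest of 5 mice for 8 of 9 members, all but Il34, and it is the mouse with the high germ cell list, whose part in these signals was not tested. HFD mouse 6 was the highest of 6 for 6 members, among them Spi1, Adgre1 and Cd68, and HFD mouse 1 the lowest for 5. In LFD, mouse 6, a mouse with high thermogenic transcripts, was the lowest for Csf1r, Adgre1 and Lyz2 and the highest for Il34. LFD mouse 3, with high gland, muscle and thermogenic transcripts, was the lowest for 4 members. Leaving out any one mouse left the calls of all 9 members unchanged in HFD+CR against HFD and in HFD against LFD.

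Ratios of 2 members on the same array were compared to see whether members changed unequally, for 5 pairs in 3 comparisons, with two-sided exact permutation tests over mice and Benjamini-Hochberg adjustment over the 15. The level of such a ratio depends on the probes and is not interpreted. The smallest p these group sizes allow is 0.00216. Csf1 over Il34 was 0.54 higher in HFD than in LFD and changed by -0.43 in HFD+CR against HFD (exact permutation p = 0.00216 for both, adjusted 0.00541). Csf1 itself passed in neither comparison, so these differences largely repeat those of Il34 and are not a separate result. Csf1r over Adgre1 was lower in HFD than in LFD (difference -0.55) and 0.41 higher in HFD+CR than in HFD (exact permutation p = 0.00216 for both, adjusted 0.00541), so that the receptor gene's signal changed less than that of the F4/80 gene. Each of these genes has 1 probe set, and whether the probes respond unequally was not tested.

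Cd68 over Adgre1 was 0.61 higher in HFD than in LFD (exact permutation p = 0.00216, adjusted 0.00541) and 0.61 higher in HFD+CR than in LFD (exact permutation p = 0.0152, adjusted 0.0253). The call against LFD in HFD+CR ended without HFD+CR mouse 1, 3, 4 or 5 or LFD mouse 1, 2 or 3 (0.54 to 0.59, highest adjusted p = 0.0635). Between HFD+CR and HFD that ratio differed by -0.0028 (exact permutation p = 0.991), and it was 0.15 without HFD+CR mouse 2. Irf8 over Spi1 passed in no comparison, with differences of -0.051, -0.28 and -0.23 in HFD+CR against HFD, HFD+CR against LFD and HFD against LFD (exact permutation, adjusted p = 0.547, 0.0812 and 0.112). That result depended on the Irf8 probe set. The second probe set averaged 6.68 in HFD+CR, 6.97 in HFD and 6.75 in LFD, below the array medians, where a signal is not shown to be above background. Averaging it in therefore does not show how Irf8 changed against Spi1. With both probe sets averaged, the ratio differed by 0.285 in HFD+CR against HFD, with the sign turned, by -0.319 in HFD+CR against LFD and by -0.603 in HFD against LFD (exact permutation, adjusted p = 0.0207, 0.0244 and 0.00464). Both comparisons with LFD also passed without LFD mouse 4 (-0.33 in HFD+CR against LFD and -0.28 in HFD against LFD, exact permutation, adjusted p = 0.0433 for both). Cx3cr1 over Adgre1 differed in all 3, by -1.29 in HFD against LFD (exact permutation p = 0.00216, adjusted 0.00541), 0.66 in HFD+CR against HFD (p = 0.00433, adjusted 0.00928) and -0.62 in HFD+CR against LFD (p = 0.00649, adjusted 0.0122). In HFD against LFD Cx3cr1 itself did not pass, so that difference largely repeats the one of Adgre1.

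**Figure D4:**
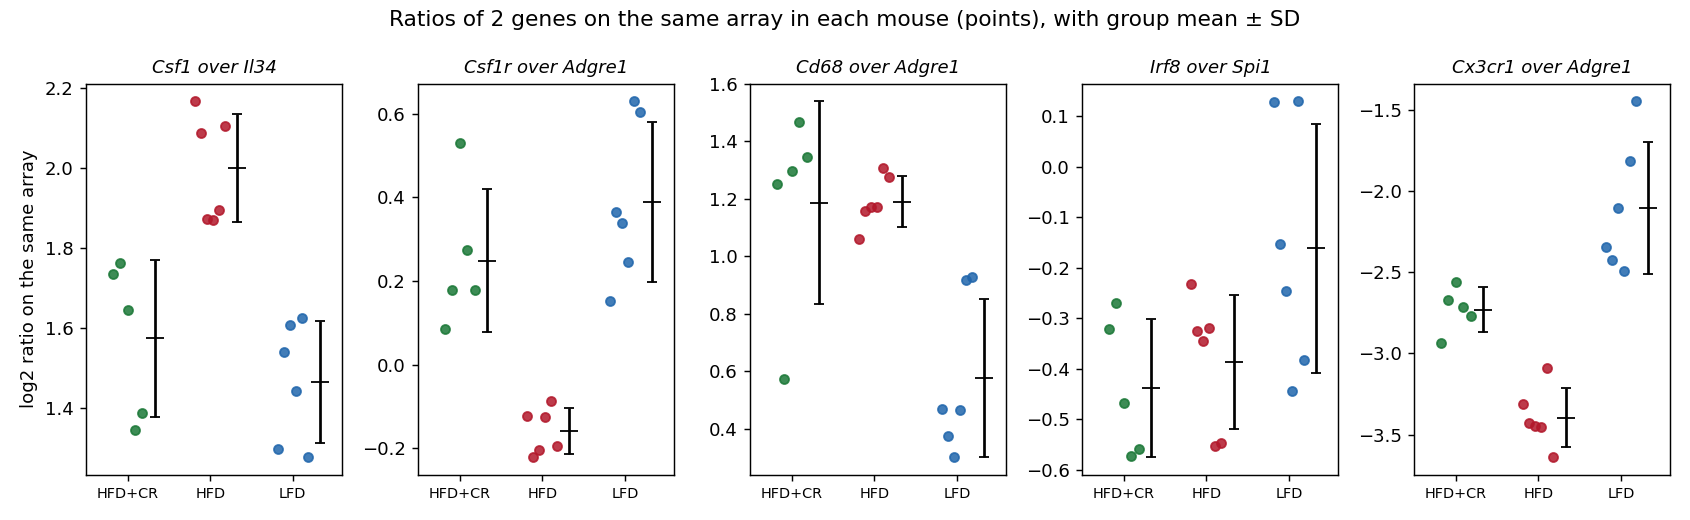
The log2 ratio of 2 genes on the same array (vertical axis, with its own range in each panel) for 5 pairs, with HFD+CR, HFD and LFD from left to right. Points are mice and black bars the group mean ± SD. Differences between groups, not the level of a ratio, can be read from it: Csf1 over Il34 is higher in every HFD mouse than in any other mouse, and Cx3cr1 over Adgre1 is lower.

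The other genes of these pathways were taken from lists. Of 7 other growth factor genes measured, 2 rose (28.6%) and none fell in HFD against LFD, where 16.5% of all genes rose and 11.3% fell. Those that rose were Tgfb1 (0.75 ± 0.077, adjusted p = 7.1e-07), which encodes a growth factor that restrains inflammation, and Kitl (0.28 ± 0.078, adjusted p = 0.00989), the ligand of KIT. Tgfb1 (-0.60 ± 0.080) and Cx3cl1 fell in HFD+CR against HFD (28.6%), and none rose, where 11.3% of all genes fell and 7.69% rose. Kitl was 0.33 ± 0.081 higher (adjusted p = 0.015) and Cx3cl1 lower in HFD+CR than in LFD, where 5.8% of all genes were higher and 3.28% lower. Csf2, Csf3, Il3 and Il5, the genes of GM-CSF, G-CSF and interleukins 3 and 5, averaged 6.15, 6.53, 5.58 and 6.38 in HFD+CR, 6.29, 6.66, 5.60 and 6.42 in HFD and 6.18, 6.59, 5.64 and 6.34 in LFD, below the array medians, where a signal is not shown to be above background. The list's median difference was 0.081 in HFD against LFD, -0.13 in HFD+CR against HFD and -0.025 in HFD+CR against LFD.

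Of 11 other receptor genes, 8 rose and none fell in HFD against LFD, where 16.5% of all genes rose and 11.3% fell. Among the 8 were Csf2ra (0.78 ± 0.073) and Csf2rb2 (1.10 ± 0.12), which encode chains of receptors for GM-CSF and its relatives, Sdc1 (0.84 ± 0.088), a proteoglycan gene, and the TGF beta receptor gene Tgfbr1 (0.58 ± 0.071), with adjusted p from 2.59e-07 to 6.21e-06. In HFD+CR against HFD, 7 of the 11 fell and 1 rose, where 11.3% of all genes fell and 7.69% rose. Csf2ra fell by 0.62 (SE 0.077) and Csf2rb2 by 0.81 (SE 0.12). The one that rose was Kit, the stem cell factor receptor gene of mast cells and blood progenitors, which averaged 9.70 ± 0.26 in HFD+CR (SD, n = 5), 8.84 ± 0.15 in HFD and 8.80 ± 0.22 in LFD (n = 6 each). Kit stood 0.86 ± 0.12 above HFD (adjusted p = 6.11e-05) and 0.89 ± 0.12 above LFD (adjusted p = 0.000128) in HFD+CR. A list of 6 other mast cell markers ran from 8.12 to 8.43 in HFD+CR, 8.30 to 8.69 in HFD and 7.73 to 8.63 in LFD, and none of the 6 rose or fell in any comparison. Set against LFD, 2 receptor genes were higher in HFD+CR, Kit and Sdc1 (0.32 ± 0.092, adjusted p = 0.0375), and none lower. Over all genes 5.8% were higher and 3.28% lower.

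Of 21 genes that act in signalling below the CSF1 receptor, some passing the signal on and others, such as Inpp5d, Ptpn6, Cbl and the Dok genes, restraining it, 17 rose and none fell in HFD against LFD, with a median of 0.41. Over all genes 16.5% rose and 11.3% fell. Pik3ap1 (1.55 ± 0.11) and Pik3r5 (1.26 ± 0.11) encode partners of PI3 kinase, Tyrobp (1.54 ± 0.12) the adaptor DAP12, and Dok1 (0.74 ± 0.076) a docking protein that dampens kinase signals, with adjusted p from 2.23e-08 to 8.59e-07. In HFD+CR against HFD, 18 fell and none rose, where 11.3% of all genes fell and 7.69% rose. The list's median was -0.42, and Pik3ap1 fell by 1.19 (SE 0.12, adjusted p = 6.47e-06). Set against LFD, 3 were higher in HFD+CR and none lower, where 5.8% of all genes were higher and 3.28% lower. Among the 3 were Tyrobp (0.60 ± 0.13, adjusted p = 0.00641) and Pik3r5 (0.48 ± 0.12, adjusted p = 0.0134), with a list median of 0.032. Several of these genes act in many leukocytes beside macrophages.

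Of 25 other transcription factor genes of the myeloid lineage, 7 rose (28%) and 2 fell (8%) in HFD against LFD, where 16.5% of all genes rose and 11.3% fell, and the list's median was 0.11. In HFD+CR against HFD, 3 rose (12%) and 8 fell (32%), where 7.69% of all genes rose and 11.3% fell. Set against LFD, 4 were higher (16%) and 2 lower (8%) in HFD+CR, where 5.8% of all genes were higher and 3.28% lower. Egr2, an immediate early gene (1.61 ± 0.11, adjusted p = 1.07e-08), and the related lysosomal regulators Mitf (0.81 ± 0.070) and Tfec (1.14 ± 0.12) rose in HFD, and all 3 fell in HFD+CR against HFD, by 1.18, 0.33 and 0.68. All 3 stood above LFD in HFD+CR, by 0.44 ± 0.11, 0.48 ± 0.074 and 0.47 ± 0.12 (adjusted p = 0.0209, 0.000481 and 0.0224). Gata6, needed by macrophages of the peritoneal cavity and also made by mesothelial cells, fell by 0.78 in HFD against LFD (SE 0.071, adjusted p = 2.09e-07), rose by 0.40 ± 0.075 in HFD+CR against HFD (adjusted p = 0.00086) and was lower in HFD+CR than in LFD (-0.38 ± 0.075, adjusted p = 0.00329). A mesothelium list ran from 9.18 to 10.09 in HFD+CR, 8.95 to 9.61 in HFD and 9.11 to 10.00 in LFD, with 3 of 7 markers higher in HFD+CR than in HFD, and its part in the Gata6 signal was not tested. Cebpa, which serves both adipocytes and myeloid progenitors, fell by 0.50 in HFD against LFD (SE 0.062) and rose by 0.40 ± 0.065 in HFD+CR against HFD (adjusted p = 0.000254). Bhlhe41 rose by 0.50 ± 0.13 in HFD+CR against HFD (adjusted p = 0.0121).

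Of 24 other macrophage and monocyte markers, 13 rose and 2 fell in HFD against LFD, with a median of 0.44. Over all genes 16.5% rose and 11.3% fell. The integrin gene Itgax (2.99 ± 0.23), the pore-forming Mpeg1 (1.82 ± 0.16), Ms4a7 (1.97 ± 0.14) and the Fc receptor gene Fcgr1 (1.47 ± 0.14) had the smallest p values of the list, and all 4 rose. Lyz1 was among those that fell, so the list did not move as a whole. Timd4 also had a lower mean in HFD, with 8.27 ± 0.18 in HFD+CR (SD, n = 5), 8.18 ± 0.20 in HFD and 8.61 ± 0.23 in LFD (n = 6 each). Where 11.3% of all genes fell and 7.69% rose in HFD+CR against HFD, 13 of the markers fell and 2 rose. Of these, Fcgr1 averaged 8.17 ± 0.24 in HFD+CR (SD, n = 5), 9.66 ± 0.35 in HFD and 8.19 ± 0.21 in LFD (n = 6 each), whereas Itgax averaged 8.87 ± 0.62 in HFD+CR, 10.47 ± 0.37 in HFD and 7.47 ± 0.34 in LFD and stood 1.40 ± 0.24 above LFD in HFD+CR (adjusted p = 0.00124). Apart from Lyz1, the gene that rose was Mertk, a receptor for dying cells (0.39 ± 0.067, adjusted p = 0.000434), which also stood 0.25 ± 0.067 above LFD in HFD+CR (adjusted p = 0.0255). Set against LFD, 4 markers were higher in HFD+CR and none lower, with a median of -0.00018, where 5.8% of all genes were higher and 3.28% lower.

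**Figure D5:**
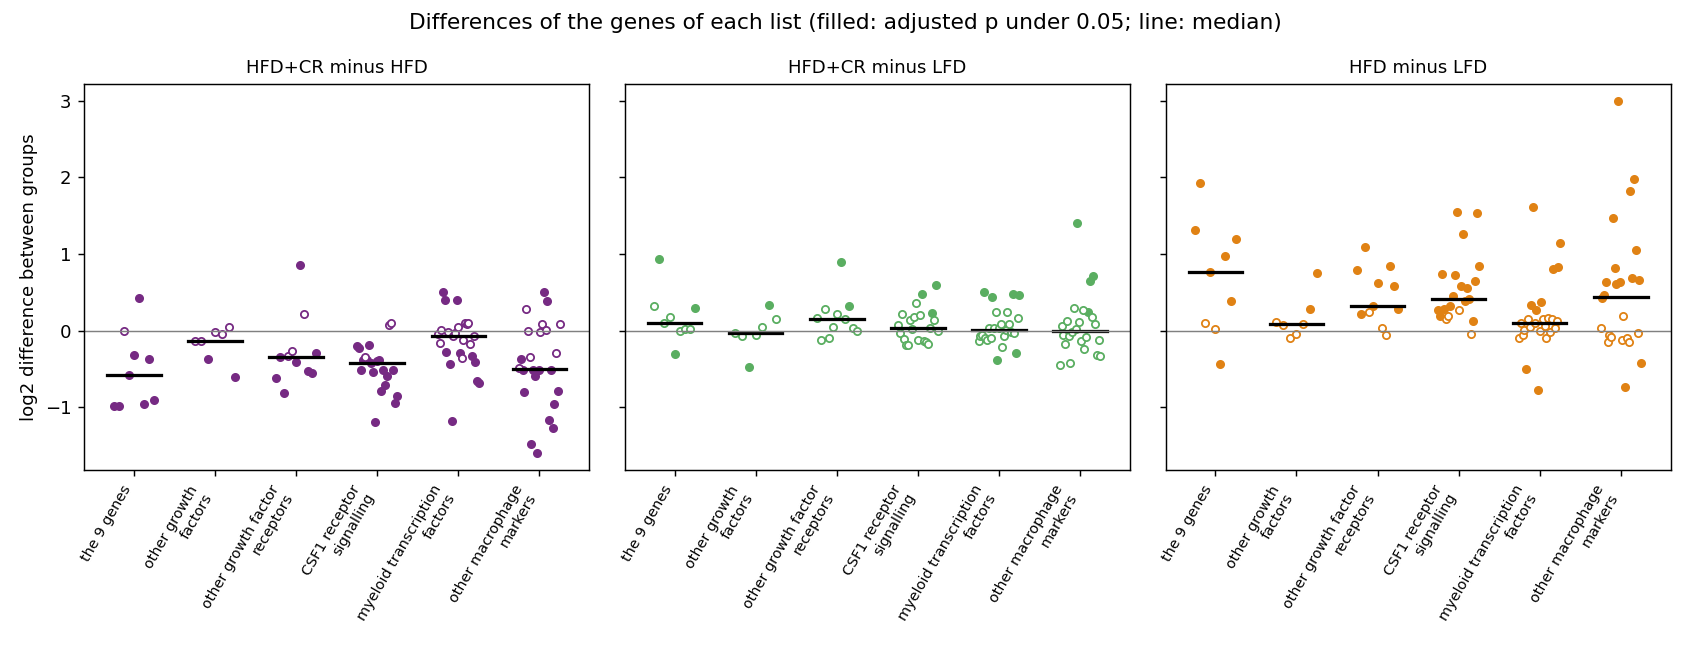
Log2 differences (vertical axis) of the 9 genes and of the genes of the 5 other lists, in HFD+CR minus HFD, HFD+CR minus LFD and HFD minus LFD from left to right. Filled points passed at an adjusted p under 0.05, open points did not, and black lines are medians. The medians of the CSF1 receptor signalling genes are -0.42, 0.032 and 0.41.

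Other cells that carry some of these transcripts were read through marker lists. Over all genes, 16.5% rose and 11.3% fell in HFD against LFD, and 7.69% rose and 11.3% fell in HFD+CR against HFD. A neutrophil list, for Lyz2, ran from 6.37 to 6.44 in HFD+CR, 6.43 to 6.60 in HFD and 6.34 to 6.46 in LFD, and 1 of its 10 markers averaged above the array medians. In that list, 1 marker rose and 1 fell in HFD against LFD, and 1 rose and 1 fell in HFD+CR against HFD. Its part in the Lyz2 differences was not tested. A B cell list, for Spi1 and Irf8, ran from 8.04 to 8.86 in HFD+CR, 8.07 to 9.30 in HFD and 8.03 to 9.34 in LFD, with no marker of 7 higher in HFD than in LFD and 1 lower. A conventional dendritic cell list, for Irf8, ran from 8.74 to 9.01 in HFD+CR, 9.03 to 9.15 in HFD and 8.73 to 9.18 in LFD, with 2 of 7 markers, Clec10a and Xcr1, lower in HFD+CR than in HFD and 2 of 7, Clec10a and Flt3, higher in HFD than in LFD. Xcr1 averaged 6.76 in HFD+CR and 6.81 in LFD, below the array medians, and 7.04 in HFD. The dendritic cell list's median difference was -0.26 in HFD+CR against HFD and 0.085 in HFD against LFD, and its part in the Irf8 differences was not tested. An NK cell list, for Cx3cr1, ran from 6.43 to 6.55 in HFD+CR, 6.47 to 6.61 in HFD and 6.51 to 6.83 in LFD, with 2 of 6 markers above the array medians and 1 lower in HFD+CR than in HFD, and its part in the Cx3cr1 difference was not tested. A fibroblast list, whose cells can make Csf1, ran from 10.78 to 11.16 in HFD+CR, 11.32 to 11.57 in HFD and 10.73 to 10.95 in LFD. Of its 8 markers, 6 rose in HFD against LFD and 4 fell in HFD+CR against HFD, and their part in the Csf1 signal was not tested. The T cell list ran from 7.22 to 7.495 in HFD+CR, 7.27 to 7.54 in HFD and 7.23 to 8.36 in LFD, and the plasmacytoid dendritic cell list from 7.41 to 7.65 in HFD+CR, 7.502 to 7.68 in HFD and 7.51 to 8.07 in LFD. Of the latter's 6 markers, 1 was lower in HFD than in LFD and 1 lower in HFD+CR than in LFD, where 3.28% of all genes were lower. Its marker Siglech averaged 7.17 in HFD+CR, 7.03 in HFD and 7.63 in LFD. The list's part in the Irf8 differences was not tested.

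The genes most like 4 of the members were found by the root mean square difference of log2 signals over the 17 arrays, each gene centred on its own mean, among 18546 genes with plain names. For Csf1r they were Unc93b1, Ctsh, Inpp5d, Alox5ap and Csf2ra, at 0.070 to 0.085, where the spread of Csf1r itself was 0.36. For Il34 they were Hoxa2, Ebf3, Tcf7l2, Tmem8b and Abca8a, at 0.099 to 0.11 beside a spread of 0.24. Cx3cr1 was closest to Gnptab, Marcks, Arid3a, Ap3d1 and Lgals3bp, at 0.072 to 0.092 beside a spread of 0.17. Csf1, with a spread of 0.12, was closest to Tspyl4, Tjap1, Antxr1, Dnajb7 and Tbx18, at 0.064 to 0.081.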

How the data were processed

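Affymetrix Mouse Gene 2.0 ST arrays, 1 per mouse, were hybridized with RNA of periprostatic fat from 17 mice, from RNA with an integrity number above 7, per the labels' protocols. The authors deposited log2 expression values per probe set. The submitters' processing notes list RMA, limma and R 3.5.0 without saying which did what. The deposited log2 values ran from 4.55 to 14.4 over 33793 probe sets. By GEO's platform annotation, 23521 carried a single gene symbol, 1814 more than 1 and 8458 no symbol. Probe sets with 1 symbol were used, with the highest mean over 17 arrays per gene, and nothing was filtered or rescaled. The files name no genome build, so gene positions are not given, and promoters are RefSeq's.

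Using limma (version 3.58.1, under R 4.3.3), lmFit estimated the 3 group means of every gene from the 17 arrays together, and eBayes was run untrended, with residual degrees of freedom of 14 and a prior of 3.625. Adjusted p-values are Benjamini-Hochberg over all genes. Ratios were tested by exact permutation over mice in Python 3.11.15, and figures were drawn with matplotlib 3.10.9. Both procedures were tested on simulated data. The members, lists and rules were chosen with earlier results of these data known. All members are named, and of each other list the 4 genes with the smallest p in HFD minus LFD and any gene called against the list's majority in HFD+CR minus HFD, while Cx3cl1, Csf3, Il3, Timd4 and the markers in the paragraph on other cells were named besides. The male germ cell list was added after the data were seen. Alternatives left out each mouse in turn or arrays with other tissue, took the mouse number as a block, kept genes above the median level, averaged probe sets, centred or quantile normalized arrays again, fitted only the arrays compared, used trend and robust eBayes, or weighted arrays.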

Additional observations from a re-analysis of the deposited data

Results flagged for a closer look

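The values of each gene and each ratio within a group were looked at for a mouse far from the others of its group, in 42 sets of values, of which chance alone would single out about 1 in 20. A gap to the nearest mouse that was large against the group's whole range was found in 4. LFD mouse 6 had a Lyz2 signal of 12.59, while the remaining LFD mice had 12.94 to 13.10. Spi1 measured 10.59 in HFD mouse 6, against 10.19 to 10.31 in the other HFD mice. Irf8 measured 9.66 in HFD mouse 5, against 9.94 to 10.04 in the other HFD mice. The log2 ratio of Cd68 over Adgre1 was 0.575 in HFD+CR mouse 2, the HFD+CR mouse with muscle transcripts, against 1.25 to 1.47 in the other HFD+CR mice.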

How the results depend on the processing

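Of 18 member differences that passed, 17 kept their direction and their call in all 28 alternatives, the exception being Spi1 in HFD+CR against LFD. The count of members higher in HFD+CR than in LFD was 2, and it was 1 with arrays centred on their medians, with quantile normalization again, with only the arrays compared, with array quality weights, without the 4 arrays with other tissue, without LFD mice 3 and 6, and without the 4 arrays and HFD+CR mouse 1 (chosen after seeing the data). It was 1 to 2 without single mice. The last of these settings gave 1297 called genes in HFD+CR against LFD, where all arrays gave 2015, 801 of them higher against 1287, and it tests fewer mice. Array quality weights gave 2630 genes higher in HFD+CR than in HFD, where the unweighted fit gave 1705. No difference that missed the threshold passed in any alternative, but 5 of them, all near 0, changed sign. Csf1 in HFD+CR minus HFD was 0.026 with the replicate block, 0.014 centred, 0.042 after quantile normalization and -0.038 to 0.030 without single mice. Il34 in HFD+CR minus LFD was 0.026 with the replicate block, 0.028 without LFD mice 3 and 6 and -0.047 to 0.052 without single mice. Lyz2 in HFD+CR minus LFD was -0.015 with the replicate block, -0.0046 centred, -0.075 without LFD mice 3 and 6, -0.053 without the 4 arrays and HFD+CR mouse 1, and -0.057 to 0.064 without single mice. Irf8 in HFD+CR minus LFD was -0.0051 with the replicate block, -0.027 with probe sets averaged, -0.0042 centred, -0.0099 after quantile normalization, -0.084 with weights, -0.061 without the 4 arrays, -0.14 without LFD mice 3 and 6, -0.17 without the 4 arrays and HFD+CR mouse 1, and -0.067 to 0.098 without single mice. Cx3cr1 in HFD minus LFD was -0.014 centred, -0.044 after quantile normalization, -0.022 without the 4 arrays, with or without HFD+CR mouse 1, and -0.015 to 0.044 without single mice. Among ratios, Cd68 over Adgre1 in HFD+CR minus HFD was 0.146 without the 4 arrays and -0.073 to 0.15 without single mice. With probe sets averaged, Irf8 over Spi1 was 0.285 in HFD+CR minus HFD (exact permutation adjusted p = 0.0207), -0.603 in HFD minus LFD (0.00464) and -0.319 in HFD+CR minus LFD (0.0244), and both comparisons with LFD also passed without LFD mouse 4. The added Irf8 probe set averaged below the array medians in every group. The causes were not tested. Deviations of same-numbered arrays from their group means correlated at -0.108 to 0.41 over the 3 comparisons, which cannot show that the numbers pair no arrays. For most mice, the highest correlation with an array of another number was the larger one. That value was the highest of several arrays and was set against a single one, so it says nothing on pairing. HFD mouse 3 correlated at 0.409 with LFD mouse 3 and at most at -0.00962 with other LFD mice. HFD+CR mouse 2 correlated at 0.303 with LFD mouse 2 and at most at 0.0601 with other LFD mice. The prostate and accessory gland list was 1.07 higher than in the median array in HFD mouse 3 and 2.24 higher in LFD mouse 3. The muscle list was 1.97 higher in HFD+CR mouse 2 and 3.15 higher in LFD mouse 2. The part of these transcripts in the correlations was not tested. The replicate block changed no member call, with 4010, 1773 and 6056 genes called in HFD+CR against HFD, HFD+CR against LFD and HFD against LFD, where the fit without it called 4213, 2015 and 6165. Signals below the array medians are not shown to be above background.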
